A study of Mus musculus with 4 samples.

Results

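Crtam cells without Xcl1 made up 119 of the 12325 T cells kept in this series, with 62 of 5993 in mouse 1 and 57 of 6332 in mouse 2. Their shares were 1.035% (95% exact binomial interval 0.794 to 1.32) and 0.9002% (0.682 to 1.16). They were chosen by their transcripts, as kept cells with at least 2 UMIs of Crtam and none of Xcl1 or Foxp3, a UMI (unique molecular identifier) standing for 1 captured transcript. A cell was kept if 500 or more genes were detected, mitochondrial UMIs made up no more than 10%, and the receptor library of its mouse held exactly 1 β chain (TRB) and no more than 2 α chains (TRA) for it. The levels of Crtam, Xcl1 and Foxp3 therefore describe the choice and are not a result. They were described against 4656 and 4740 comparison cells with no UMI of these 3 genes, and against 63 and 49 cells with at least 2 Crtam UMIs, at least 1 Xcl1 UMI and no Foxp3 UMI, called Crtam cells with Xcl1 here.

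All groups came from the same animals and share their history. CD4 T cells were purified from spleens of B6.H2g7 donors (strain B6.NOD-(D17Mit21-D17Mit10)/LtJ, aged 6 to 8 weeks), and 5000000 of them were given to each of 2 NOD.Rag1null hosts, which have no T or B cells of their own but keep other blood cells. On day 14 live cells with CD4 and the receptor β chain on their surface were sorted from each host spleen for a 5′ gene expression library and a receptor library. The labels do not say whether donor cells were pooled, and there is no group without transfer. The expression libraries held 9996 and 9733 barcodes with 70092822 and 75940181 UMIs, and kept cells had medians of 5596 and 6219.5 UMIs. Of all barcodes 166 occurred in both libraries, among them 3 of the Crtam cells without Xcl1. Median depth was 6257.5 and 7062 UMIs in Crtam cells without Xcl1, 5464.5 and 6155 in comparison cells, and 7926 and 7685 in Crtam cells with Xcl1, so 0 Xcl1 UMIs does not show that the gene was silent.

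CRTAM is a surface receptor of the immunoglobulin superfamily that appears on CD8 T cells, NK cells and a minority of CD4 T cells after activation. It binds the adhesion molecule CADM1 on other cells and, within the T cell, the polarity protein SCRIB. In CD4 T cells it is known from cells with a cytotoxic character and the T-box factor EOMES. XCL1 is a chemokine that attracts dendritic cells bearing XCR1. Crtam (ENSMUSG00000032021) is a protein-coding gene on the minus strand of chromosome 9, 40969691 to 41004628 in GRCm38, with 10 exons in its longest basic transcript. Xcl1 (ENSMUSG00000026573) lies on the minus strand of chromosome 1, 164931644 to 164935527, with 3 exons.

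The label of the cells names Crtam, Samd3 and Cldn10. Crtam chose the cells, and Samd3 and Cldn10 led a cluster with it in an earlier clustering of these cells. Their values therefore describe the label and do not test it. Crtam reached a median of 3 and 2 UMIs per cell and a maximum of 13 and 8. A UMI of Samd3, which encodes a sterile alpha motif protein (chromosome 10, 26229707 to 26272172, plus strand), was found in 40.3% and 36.8% of them and in 2.15% and 2.03% of comparison cells. Cldn10, a claudin of tight junctions (chromosome 14, 118787908 to 118875489, plus strand), was found in 19.4% and 21.1% against 1.01% and 0.654%. At 2000 UMIs per cell, with 1 shallower Crtam cell left out in mouse 1 and none in mouse 2, these shares were 20.3% and 18.3% against 1.02% and 0.887% for Samd3 and 7.16% and 9.56% against 0.413% and 0.212% for Cldn10. Samd3 or Cldn10 marked 53.2% (40.1 to 66.0) and 47.4% (34.0 to 61.0) of them, and both genes together 6.45% and 10.5%, so neither gene marks the whole class. Every kept cell has a receptor β chain, so the kept cells offer no cell type that should lack such genes. The comparison cells give the background. A single β chain does not exclude a T cell captured together with another cell. Of 9860 and 9642 barcodes past the gene and mitochondrial filters, 6701 and 7034 had a TRB chain, and the rest were not described.

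Markers of most other cell types were few. Cd4 was detected in 85.5% and 86.0% of Crtam cells without Xcl1 and in 85.9% and 89.9% of comparison cells, and all 8 CD4 T cell markers were detected. Of 2 CD8 T cell markers Cd8a was at 0 in both classes, and Cd8b1 was detected in 1.61% and 7.02% of Crtam cells without Xcl1 against 4.36% and 3.42% of comparison cells. The Cd8b1 shares of Crtam cells without Xcl1 rest on 1 and 4 cells. Of 6 NK cell markers 3 were detected, with Ncr1, Klra8 and Klra4 at 0 and summed levels of 8.77 and 25.3 counts per 1000000 counts of the class (CPM), against 14.4 and 17.1 in comparison cells. Among 4 markers of invariant NKT and γδ T cells only Trdc was seen, in 16.1% of the cells of mouse 1 and in none of mouse 2, against 6.51% and 0.338% of comparison cells. None carried the invariant α chain TRAV11-TRAJ18, which 4 kept cells had. The B cell markers summed to 59.2 and 52.8 CPM against 74.8 and 88.0 CPM, with Ms4a1 at 0 in Crtam cells without Xcl1. A UMI of these markers was found in 22.6% and 24.6% of Crtam cells without Xcl1 and in 21.0% and 25.9% of comparison cells. Of 8 genes of a wider B cell list 3 were tested, with a median log2 difference of 1.40, and none passed. The myeloid, dendritic, erythroid and platelet markers reached at most 9.19 CPM there, with Lyz2 and Csf1r at 0. Cd68, a lysosomal glycoprotein best known from macrophages, was nevertheless higher, with 52.6 and 66.6 against 22.2 and 17.8 CPM (log2 difference 1.48 ± 0.28 SE, edgeR adjusted p = 0.00341). The part of other cells in the results was not tested.

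Samd3, Cldn10 and the receptor phosphatase gene Ptprk led a cluster with Crtam in an earlier clustering of these cells, so their levels are described without a test. Samd3 stood at 110 and 96.5 CPM in Crtam cells without Xcl1 and at 4.99 and 4.0006 CPM in comparison cells. For Cldn10 the values were 41.7 and 48.2 against 2.08 and 1.14 CPM, and for Ptprk 116 and 62.0 against 4.96 and 4.49 CPM. All 3 were higher in both mice with no overlap. Ptprk was uneven between cells: 17 of its 53 UMIs in mouse 1 and 13 of its 27 in mouse 2 came from 1 cell each.

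Around the threshold the levels moved in steps. In cells with 1 Crtam UMI, just outside it (141 and 163 cells), Samd3 reached 18.2 and 26.1 CPM, and in those with 2 UMIs, just inside it (25 and 34 cells), 134 and 97.3 CPM. Eomes, which encodes a T-box factor of cytotoxic and memory lymphocytes, went from 154 and 131 to 331 and 245 CPM across the threshold, and to 405 and 447 CPM at 3 or more UMIs (37 and 23 cells). Cxcr6, a chemokine receptor of tissue-homing effector cells, stood at 118 and 147 CPM with no Crtam UMI, at 28.8 and 88.1 with 1, at 11.6 and 29.6 with 2, and had no UMI at 3 or more. Gzmb went from 94.0 to 134 CPM between 1 and 2 UMIs in mouse 1 and from 63.8 to 50.8 CPM in mouse 2, and stood at 0 and 10.1 CPM at 3 or more. Cells with 1 Crtam UMI thus lay between the others for Samd3, Eomes and Cxcr6 in both mice, while Gzmb followed no steady order in mouse 1.

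**Figure D1:**
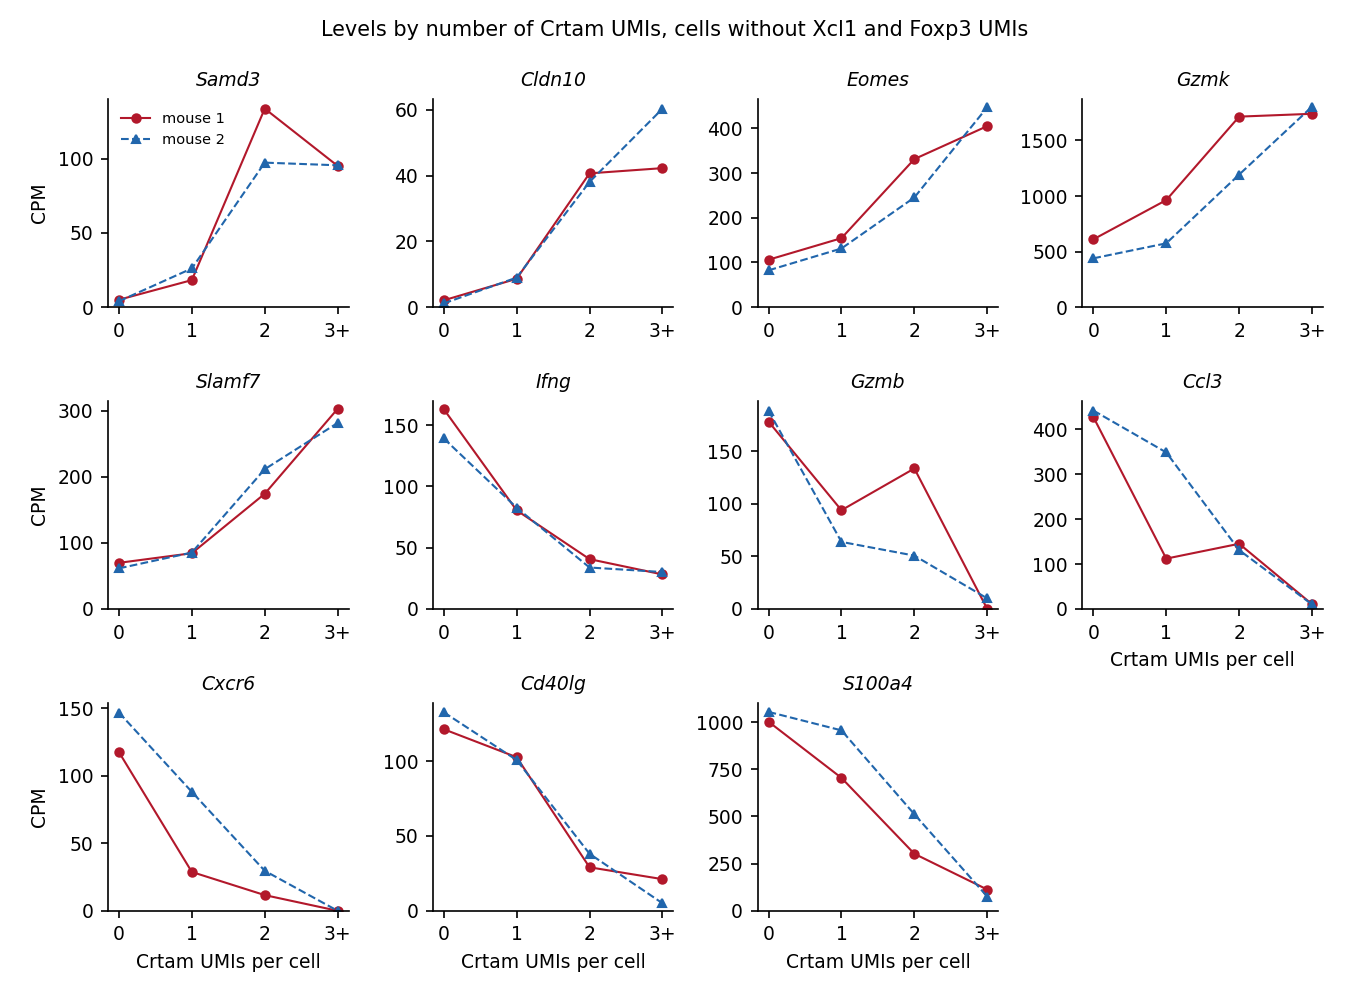
Levels in CPM (vertical axes, linear, from 0) of 11 genes in cells with 0, 1, 2 and 3 or more Crtam UMIs and no Xcl1 or Foxp3 UMI, as 1 sum of counts per mouse (circles and solid lines mouse 1, triangles and dashed lines mouse 2). Samd3, Cldn10, Eomes, Gzmk and Slamf7 stand higher from 2 Crtam UMIs on than at 0, and Ifng, Ccl3, Cxcr6, Cd40lg and S100a4 (a calcium-binding effector gene) stand lower, with Cxcr6 at 118 and 147 CPM without Crtam and at 0 with 3 or more UMIs; S100a4 and Slamf7 were chosen after their values were seen.

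Counts were then summed per mouse and class and tested over all genes with edgeR's quasi-likelihood test with the mouse as a block, and adjusted p-values below are Benjamini-Hochberg values over all 12374 genes tested. Of these genes 407 (3.29%) passed an adjusted p of 0.05 against comparison cells, 192 (1.55%) higher and 215 (1.74%) lower, all with the same direction in both mice. The higher count includes Samd3, Cldn10 and Ptprk. These shares over all genes, 1.55% higher and 1.74% lower, are the background for the counts in gene lists below. Differences are given on the log2 scale with the standard error of the fit. The fit had 1 residual degree of freedom and 17.59 prior ones, which come from all genes together.

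Eomes, Gzmk and genes beside them made up the best measured part of the increase. Eomes reached 377 and 338 CPM in Crtam cells without Xcl1 and 106 and 82.4 CPM in comparison cells (log2 difference 1.83 ± 0.14 SE, edgeR adjusted p = 1.50e-07). Gzmk, a granzyme of memory-like cytotoxic cells, reached 1730.4 and 1473 against 610.2 and 439 CPM (1.53 ± 0.11, edgeR adjusted p = 2.93e-08). Both classes stood apart in both mice. Both genes were detected together in 67.7% (54.7 to 79.1) and 70.2% (56.6 to 81.6) of Crtam cells without Xcl1 and in 23.7% and 19.96% of comparison cells. Slamf7, a SLAM family receptor of cytotoxic cells, stood at 254 and 244 against 69.8 and 61.5 CPM (1.83 ± 0.15, edgeR adjusted p = 3.06e-07). Ctla2a, which encodes a cysteine protease inhibitor, Esm1, which encodes a secreted proteoglycan, and Tgfbr3, a co-receptor for TGF-β, rose by 1.59, 2.13 and 1.66 on the log2 scale. Slamf7, Ctla2a, Esm1, Tgfbr3, Myb and Sox4 were chosen after their values were seen.

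Genes of the naive and quiescence list went down more often than up: among 14 tested, 5 were lower (Ly6c1, Igfbp4, Ccr7, Il7r and Satb1) and 1 was higher (median -0.38 for the list, -0.06 for all genes). Ccr7, a chemokine receptor that leads cells into lymph nodes, had 15.4 and 62.0 against 75.8 and 112 CPM (-1.41 ± 0.27, edgeR adjusted p = 0.00399). Tcf7, a transcription factor of memory and stem-like T cells, had 601 and 561 against 481 and 523 CPM and did not pass (adjusted p = 0.738), nor did Id3 (adjusted p = 0.415). Ccr7, Igfbp4 and Satb1 no longer passed without the leading clonotype of each mouse. Myb, a factor of progenitor and stem-like cells, rose by 1.98 ± 0.24 with 98.7 and 71.2 against 22.3 and 17.8 CPM, and Sox4, a factor of developing lymphocytes, by 3.10 ± 0.61 on 9 UMIs in 5 cells of each mouse.

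Among 15 tested genes of the cytotoxic list 5 were higher (Gzmk, Klrg1, Ctsw, Lamp1 and Cst7) and 4 lower (Gzmb, Gzma, Srgn and Nkg7), with a median of -0.39. Gzmb, the main granzyme of fully armed killer cells, stood at 50.4 and 32.2 CPM against 178 and 189 CPM (-2.24 ± 0.22, edgeR adjusted p = 2.43e-06). It was detected in 6.45% and 8.77% of Crtam cells without Xcl1 and in 20.9% and 23.02% of comparison cells, and 19 of its 23 UMIs in mouse 1 came from 1 cell. Prf1, which encodes the pore-forming protein perforin, had 68.0 and 48.2 against 47.02 and 45.8 CPM and did not pass (adjusted p = 0.735). Nkg7, a granule membrane protein, had 1476 and 1826 against 1946 and 2078 CPM (-0.39 ± 0.10, edgeR adjusted p = 0.0276). More of the Crtam cells without Xcl1 had an Nkg7 UMI, 90.3% and 86.0% against 59.4% and 57.6% (78.0% and 77.6% against 51.2% and 49.9% at 2000 UMIs). The difference in level turned to 0.62 (adjusted p = 0.0977) with 1 cell per clonotype. The members of this list that rose include Lamp1, a membrane protein of lysosomes, Ctsw, a cathepsin, Cst7, a cathepsin inhibitor, and Klrg1, a lectin-like inhibitory receptor. None of these 4 passed without the leading clonotype of each mouse.

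Regulators of cytotoxic CD4 cells split in the same way, with Eomes and Zeb2 higher and Prdm1, Zbtb7b and Id2 lower among 14 tested. Tbx21, the T-box factor of Th1 cells, had 83.3 and 29.9 against 66.3 and 71.2 CPM and did not pass (adjusted p = 0.619), nor did Runx3 (adjusted p = 0.267). Tbx21 moved in opposite directions in the mice. Zbtb7b, the factor that fixes the helper fate, stood at 28.5 and 20.7 against 46.9 and 49.5 CPM (-1.06 ± 0.29, edgeR adjusted p = 0.0471). Zeb2, Prdm1 and Zbtb7b no longer passed with 1 cell per clonotype or with DESeq2.

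**Figure D2:**
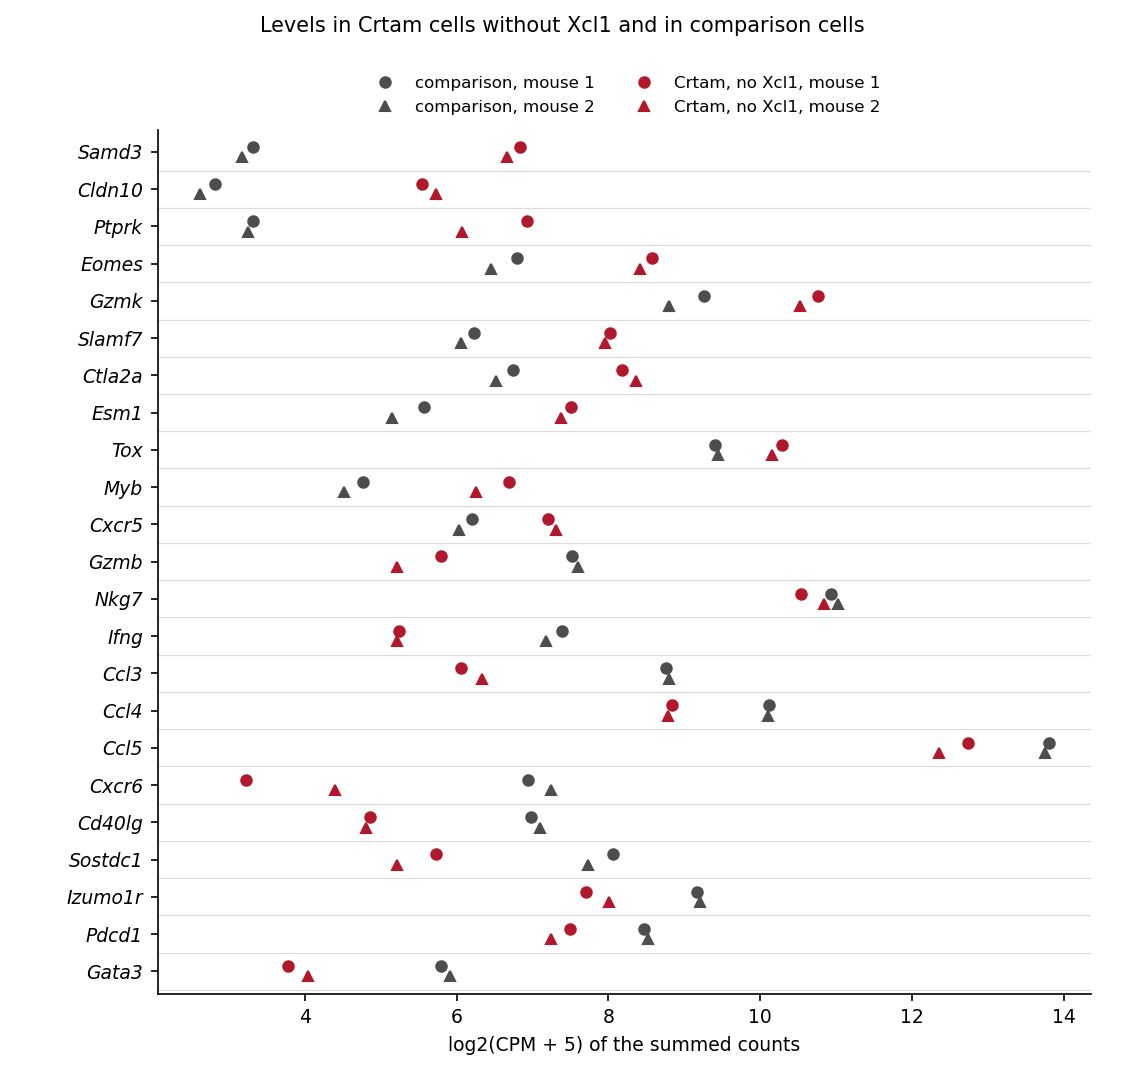
Levels of 23 genes as log2(CPM + 5) of the summed counts (horizontal axis) in Crtam cells without Xcl1 (red) and comparison cells (grey), 1 point per mouse (circles mouse 1, triangles mouse 2). The 11 upper genes, from Samd3 to Cxcr5, lie to the right in both mice, and the 12 lower genes, from Gzmb to Gata3, lie to the left, with Nkg7 the closest pair; the genes shown were picked after their values were seen.

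Inflammatory chemokines and cytokines were lower throughout the calls made. Of 16 tested genes 10 fell and none rose, with a median of -1.20 when genes with no UMI are set at their bound in the mouse where it is weaker, against -0.00055 for all genes set the same way. In the Th1 list 9 of 16 fell and none rose (median -1.09), and the 2 lists share Ifng, Ccl3, Ccl4 and Ccl5. Ifng, the main Th1 cytokine, had 32.9 and 32.2 CPM in Crtam cells without Xcl1 and 163 and 139 CPM in comparison cells (-2.32 ± 0.23, edgeR adjusted p = 2.43e-06). Cells with Eomes and no Ifng UMI made up 58.1% (44.8 to 70.5) and 64.9% (51.1 to 77.1) of Crtam cells without Xcl1. They made up 9.92% and 7.74% of comparison cells. In Crtam cells with Xcl1 such cells were nearly as common, at 52.4% and 51.0%. Ccl3 had 61.4 and 75.8 against 428 and 442 CPM in comparison cells (-2.76 ± 0.17, edgeR adjusted p = 1.71e-08). Ccl4 had 452 and 437 against 1108 and 1093 CPM (-1.41 ± 0.11, edgeR adjusted p = 1.66e-07). Ccl3 and Ccl4 encode inflammatory chemokines of activated T cells.

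Ccl5, another chemokine and one of the most abundant transcripts of effector cells, stood at 6845 and 5234 against 14287 and 13743 CPM (-1.32 ± 0.08, edgeR adjusted p = 1.71e-08). More of the Crtam cells without Xcl1 had a Ccl5 UMI, 90.3% and 89.5% against 80.7% and 70.8% (70.8% and 68.7% against 63.0% and 53.2% at 2000 UMIs), so the lower sum came with fewer UMIs per positive cell. With 1 cell per clonotype the difference was -0.26 for Ccl5 (adjusted p = 0.424), -0.93 for Ccl3 (adjusted p = 0.0763) and -0.55 for Ccl4 (adjusted p = 0.0991), none of which passed. Ifng stayed past the threshold in every alternative.

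Il10, an inhibitory cytokine, and Il4, the Th2 cytokine, had no UMI in Crtam cells without Xcl1 of either mouse. Against a floor of 3 counts per library Il10 was at least 3.18-fold lower in mouse 1 and at least 2.21-fold in mouse 2, and Il4 at least 2.41-fold and at least 2.38-fold, than in comparison cells, which had 20.9 and 15.2 CPM of Il10 and 15.8 and 16.4 CPM of Il4. This floor takes no account of UMIs grouped in few cells. Il10 was found in only 4.10% and 4.20% of comparison cells, with up to 80 and 21 UMIs in 1 cell. Crtam cells with Xcl1 held 1 and 0 UMIs of Il10. The intervals of its shares in Crtam cells without Xcl1, 0% (0 to 5.78) and 0% (0 to 6.27), include these values. With 1 cell per clonotype neither Il10 nor Il4 passed (edgeR adjusted p = 0.1196 and 0.0516), nor did they with DESeq2 or without the leading clonotypes. Il21, a cytokine of follicular helper cells, had 63.6 and 34.5 against 99.5 and 87.5 CPM (-1.03 ± 0.23, edgeR adjusted p = 0.0115). It did not pass with 1 cell per clonotype (adjusted p = 0.1397). Il2, the T cell growth factor, had 13.2 and 6.89 against 3.24 and 6.83 CPM and did not pass (adjusted p = 0.596).

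Cd40lg, the ligand through which helper cells license B cells and dendritic cells, had 24.1 and 23.0 against 121 and 133 CPM (-2.52 ± 0.25, edgeR adjusted p = 2.50e-06). It was found in 11.3% and 10.5% of Crtam cells without Xcl1 and in 39.6% and 45.0% of comparison cells. Sostdc1, which encodes a secreted antagonist of BMP and WNT signals, had 48.2 and 32.2 against 261 and 208 CPM (-2.64 ± 0.20, edgeR adjusted p = 1.45e-07). Both genes were also below comparison cells in Crtam cells with Xcl1, with 17.2 and 53.6 CPM for Cd40lg and 29.3 and 75.5 for Sostdc1. Over all genes 1.74% fell and 1.55% rose. In the follicular helper list 6 of 15 tested genes fell (Il4, Sostdc1, Cd40lg, Pdcd1, Il21 and Icos), 3 rose and 6 did not pass, with a median of -0.18. The 3 that rose were Cxcr5, the receptor that leads cells into follicles, Bcl6, the master factor of that fate, and Slamf6. Cxcr5 had 143 and 154 against 68.9 and 60.4 CPM (1.10 ± 0.17, edgeR adjusted p = 0.000681) and passed in every alternative, while Bcl6 and Slamf6 did not pass with 1 cell per clonotype (adjusted p = 0.238 and 0.438).

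The 12 largest increases by the naming rule were Cacng4, Dpysl5, Cldn10, Cxcl13, Samd3, Ptprk, Tubb2b, Atp2b2, Slc30a3, Kcnc1, Ankrd13b and Ret. Many are best known from nerve cells: Kcnc1 encodes a potassium channel, Slc30a3 a zinc transporter of vesicles, Atp2b2 a calcium pump, Tubb2b a tubulin and Ret a receptor kinase. Kcnc1 rose with 28.5 and 36.8 against 2.95 and 1.66 CPM (3.76 ± 0.54, edgeR adjusted p = 0.000254), and it was spread over 9 and 11 Crtam cells without Xcl1, with at most 3 UMIs in 1 cell. Tubb2b had 83.3 and 45.9 against 4.82 and 2.92 CPM in 13 and 12 cells. Others rest on few cells. Cacng4 had 20 UMIs in 5 cells of mouse 1, of which 14 were in 1 cell, and 4 UMIs in 3 cells of mouse 2. Cxcl13, a chemokine for B cells, came from 3 cells and 1 cell, with 10 of 12 and 8 of 8 UMIs in a single cell, and Atp2b2 from 4 cells and 1 cell. Much of this list was shared with Crtam cells with Xcl1. Cldn10, Cxcl13, Ptprk and Slc30a3 had higher CPM there in both mice, and Samd3, Atp2b2 and Kcnc1 differed in direction between the mice. Kcnc1 had 34.5 and 34.1 CPM there. Cacng4, Dpysl5, Tubb2b, Ankrd13b and Ret had lower CPM there in both mice, with 48.3 and 9.74 for Tubb2b.

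The 8 largest decreases were Ifitm3, Ly6c1, Tmem176b, Ifitm1, Spp1, Ifitm2, Nebl and Plac8. Ifitm3, an interferon-induced membrane protein, Ly6c1, a surface antigen, and Tmem176b, a membrane protein known from Th17 cells, had no UMI in Crtam cells without Xcl1. At the same floor Ifitm3 was at least 5.81-fold lower in mouse 1 and at least 6.40-fold in mouse 2, Ly6c1 at least 3.00-fold and at least 5.01-fold, and Tmem176b at least 2.79-fold and at least 3.29-fold. Few comparison cells held them: 4.68% and 5.08% for Ifitm3, 2.21% and 3.61% for Ly6c1 and 3.37% and 3.73% for Tmem176b. The intervals of the shares in Crtam cells without Xcl1, 0% (0 to 5.78) and 0% (0 to 6.27), include these values. Ifitm1 had 1 UMI over both mice against 118 and 198 CPM in comparison cells, a ratio of 143 with a counting interval of 25.7 to 5655. That interval counts UMIs as separate draws. Ifitm1 was found in only 2.58% and 2.62% of comparison cells, with up to 179 and 266 UMIs in 1 cell. The intervals of its shares in Crtam cells without Xcl1, 1.61% (0.0408 to 8.66) and 0% (0 to 6.27), include these values, so the size of the decrease is poorly known. Ifitm2 had 3 UMIs and a ratio of 25.5 (8.72 to 124), counted the same way. It was found in 1.61% and 3.51% of Crtam cells without Xcl1 and in 8.05% and 8.97% of comparison cells. Spp1, the gene of osteopontin, had 1 UMI against 28.1 and 61.2 CPM, which came from 2.21% and 4.96% of comparison cells. With cells of 1 Crtam UMI added its log2 difference was 0.04 (edgeR adjusted p = 0.967). Most of these 8 genes were as rare in Crtam cells with Xcl1. Ifitm3, Ly6c1, Tmem176b, Ifitm1, Nebl and Plac8 had at most 2 UMIs there in each mouse. Ifitm2 had 7 and 3 UMIs there and Spp1 2 and 240.

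Migration genes were part of the decrease, with 8 of 20 tested homing genes lower and 3 higher, Ccr4 and Cxcr5 among them. For this list and the 2 below, the shares over all genes were 1.74% lower and 1.55% higher. Among the lower ones Ccr6, Ccr8 and Ccr7 passed in 7, 5 and 8 of 13 alternatives with a test, and Cxcr6 and Itgb7 in all 13. Cxcr6 had 4.39 and 16.1 CPM against 118 and 147 CPM (-3.81 ± 0.32, edgeR adjusted p = 3.46e-07). Itgb7, an integrin chain of gut homing, had 195 and 287 against 456 and 449 CPM (-1.01 ± 0.15, edgeR adjusted p = 0.000359). Of 7 tested Th2 genes 4 fell (Il10, Il4, Ccr8 and Gata3) and 1 rose (Ccr4). Gata3, the Th2 factor, had 8.77 and 11.5 against 50.5 and 55.1 CPM (-2.48 ± 0.35, edgeR adjusted p = 0.000254). Its level was similar in Crtam cells with Xcl1, at 8.62 and 12.2 CPM. Of 7 tested Th17 genes 4 fell (Tmem176b, Tmem176a, Ccr6 and Rora) while 3 did not pass. Of the 4 that fell 3 had no UMI in Crtam cells without Xcl1, and none of the 4 passed with DESeq2.

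Genes of receptor signalling and inhibition moved unevenly. In the receptor signal list Tnfrsf9, an activation receptor also called 4-1BB, and Nr4a2, an immediate early nuclear receptor, rose among 15 tested, and none fell. Over all genes 1.55% rose and 1.74% fell. Tnfrsf9 had 178 and 89.6 against 50.3 and 58.5 CPM (1.19 ± 0.22, edgeR adjusted p = 0.003405). Neither passed without the leading clonotypes or at matched depth. Nr4a1 and Egr2, which follow recent receptor signals, did not pass (adjusted p = 0.176 and 0.353), and Egr2 moved in opposite directions in the mice. Pdcd1, which encodes the inhibitory receptor PD-1, had 175 and 147 against 349 and 363 CPM (-1.24 ± 0.15, edgeR adjusted p = 2.99e-05), but -0.67 (adjusted p = 0.0763) with 1 cell per clonotype. Tox, a factor of chronically stimulated T cells, rose, with 1250.1 and 1140 against 674 and 694 CPM (0.71 ± 0.10, edgeR adjusted p = 0.000293). Ikzf2, the gene of Helios, had 434 and 264 against 231 and 185 CPM (0.63 ± 0.14, edgeR adjusted p = 0.0125), and did not pass without the mouse block (adjusted p = 0.146). Izumo1r, the folate receptor 4 gene used as a mark of anergic and regulatory cells, had 204 and 253 against 569 and 589 CPM (-1.44 ± 0.13, edgeR adjusted p = 1.38e-06). It was also below comparison cells in Crtam cells with Xcl1, at 128 and 212 CPM.

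A list of CRTAM partners, polarity genes and receptors and ligands of the nectin family gave 1 call. Of its 18 genes 13 were tested, while over all genes 407 of 12374 (3.29%) passed. The call was Cd226, an activating receptor for nectin-family ligands, with 17.5 and 9.19 against 45.0 and 56.2 CPM (-1.998 ± 0.35, edgeR adjusted p = 0.00192). In Crtam cells with Xcl1 it had 19.0 and 19.5 CPM. Without the leading clonotype of each mouse Cd226 missed the threshold against comparison cells (-2.18, adjusted p = 0.0535). Scrib had 8.77 and 20.7 against 16.6 and 20.003 CPM, on 4 and 9 UMIs, and did not pass (edgeR adjusted p = 0.733). Cadm1 was too low to be tested, so these known partners of CRTAM were barely measured here. Proliferation genes fell in 2 of 20 cases (Rrm2 and Tyms), against 1.74% over all genes, and neither passed with 1 cell per clonotype. Mki67 had 110 and 117 against 141 and 89.7 CPM (edgeR adjusted p = 0.896). Of 13 tested interferon-induced genes 5 were lower, Isg15, Rtp4, Ifi27l2a and Ifi47 among them. No gene of the apoptosis, glycolysis and dissociation stress lists passed, among 12, 13 and 11 tested by edgeR. With 3.29% of all genes called, lists this short would hold few calls or none, so these counts are no result about the lists. With an unadjusted p under 0.05 there were 1691 genes over the whole comparison.

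Against Crtam cells with Xcl1 far fewer genes passed, 110 of 6566 (1.68%), with 57 (0.868%) higher and 53 (0.807%) lower in Crtam cells without Xcl1, all with the same direction in both mice. Fewer genes could be tested here because both classes are small. This fit had 1 residual and 100.3 prior degrees of freedom, so its p-values rest almost wholly on the spread pooled across genes and little on the 2 mice. Some of the genes that set Crtam cells apart from comparison cells were at close levels in the 2 Crtam classes: the log2 difference was -0.33 ± 0.19 for Eomes, 0.22 ± 0.19 for Gzmk and 0.02 ± 0.21 for Slamf7 (edgeR adjusted p = 0.502, 0.716 and 0.9849). Missing the threshold does not show that they are equal. Samd3 had 110 and 96.5 CPM without Xcl1 and 99.95 and 139 CPM with it. Others differed between the 2 Crtam classes. Myb had 98.7 and 71.2 CPM without Xcl1 and 29.3 and 36.5 CPM with it (1.35 ± 0.33, edgeR adjusted p = 0.0129). Gzmb had 50.4 and 32.2 against 20.7 and 0 CPM (1.86 ± 0.53, edgeR adjusted p = 0.0423). Myb passed in 2 of 4 alternatives with a test and Gzmb in 2 of 3. Ret and Klrg1 were also higher without Xcl1.

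The Crtam classes with and without Xcl1 were divided by Xcl1 itself. Genes that vary along with Xcl1 can therefore differ, in either direction, through the choice of cells, and activation was not tested apart from it. Within this limit, the Crtam cells without Xcl1 had less of genes that rise after recent activation. Of 12 tested receptor signal genes 5 were lower and none higher (Nr4a2, Tnfrsf9, Nr4a1, Egr2 and Dusp2), against 0.807% lower and 0.868% higher over all genes. Nr4a2 had 94.3 and 73.5 CPM without Xcl1 and 470.5 and 304 CPM with it (-2.23 ± 0.23, edgeR adjusted p = 3.66e-13). Tnfrsf9 had 178 and 89.6 against 557 and 633 CPM (-2.21 ± 0.22, edgeR adjusted p = 4.49e-14). Ccl3 had 61.4 and 75.8 against 596 and 806 CPM (-3.37 ± 0.23, edgeR adjusted p = 4.21e-23), although most Ccl3 of the cells with Xcl1 came from few cells, 163 of 346 UMIs and 308 of 331 UMIs from 1 cell in each mouse. Ifng had 32.9 and 32.2 against 122 and 183 CPM (-2.23 ± 0.30). Cd160, an inhibitory receptor, had 17.5 and 34.5 against 179 and 207 CPM (-2.93 ± 0.31). Pdcd1 had a difference of -1.48 ± 0.21. The other largest decreases were Ccl1, a chemokine, with 19.7 and 2.30 against 25.9 and 231 CPM, Susd2, Nrgn and Fam81a.

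In the other direction the Crtam cells without Xcl1 had more of quiescence genes. Of 11 tested genes of that list 5 were higher and none lower, Bach2, Il7r, Klf2 and Foxp1 among them. Over all genes of this comparison 0.868% were higher and 0.807% lower. Bach2, a repressor that holds back effector genes, had 63.6 and 75.8 against 27.6 and 21.9 CPM (1.42 ± 0.37, edgeR adjusted p = 0.0233), and Klf2, a factor of circulating cells, 485 and 682 against 374 and 190 CPM (1.02 ± 0.21). Ccl5 had 6845 and 5234 against 3874 and 2759 CPM (0.84 ± 0.21, edgeR adjusted p = 0.0155). For Il7r, the interleukin 7 receptor of resting cells, the values were 63.6 and 106 against 8.62 and 68.2 CPM. The largest increases by the naming rule included St6gal1, Ret, Pik3r5, 5830405F06Rik and Klrg1. With 1 cell per clonotype 22 genes passed, 4 higher and 18 lower, and Bach2, Il7r, Ccl5 and these 5 genes were not among those that passed. With DESeq2 11 genes passed, 1 of them higher, and Klf2 and Il7r were not among them.

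**Figure D3:**
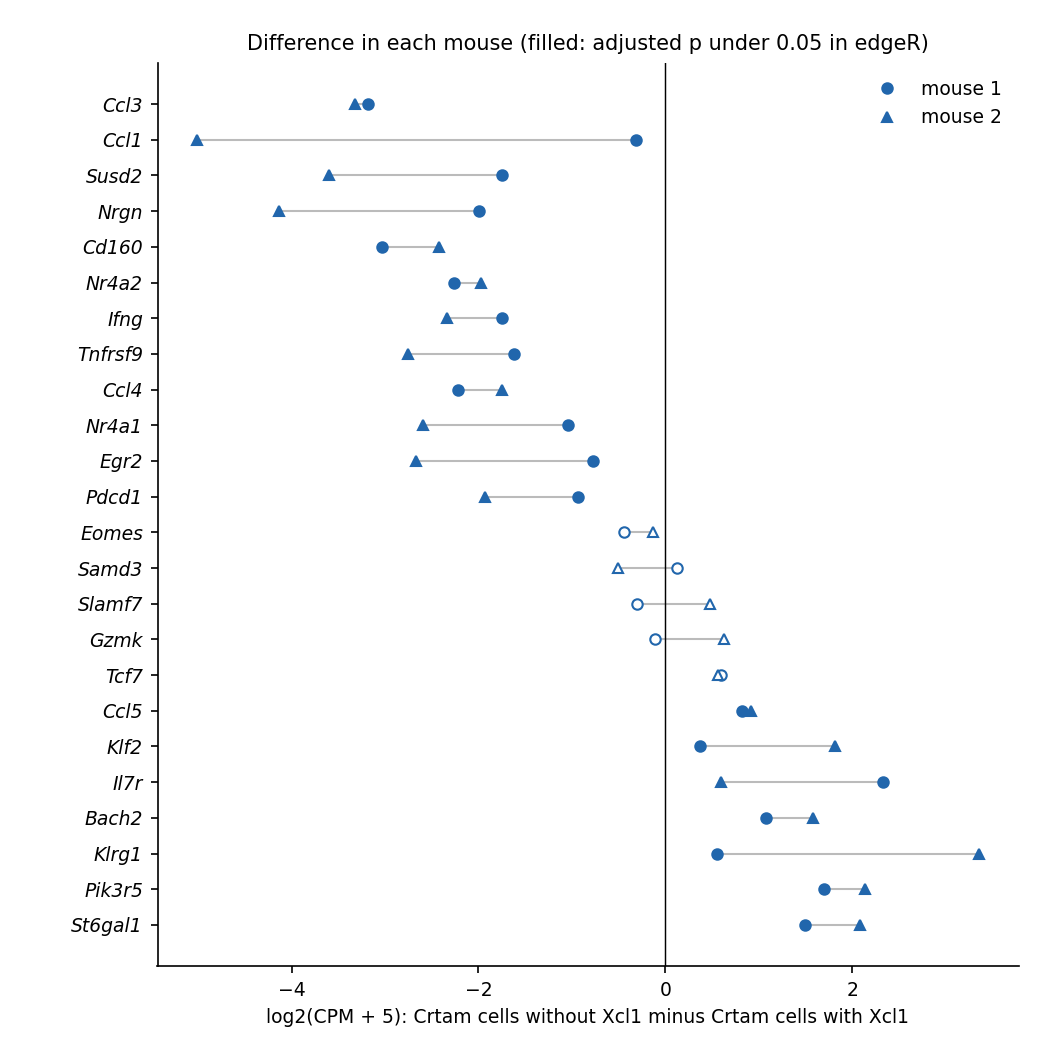
Difference in log2(CPM + 5) between Crtam cells without Xcl1 and Crtam cells with Xcl1 (horizontal axis) for 24 genes, 1 point per mouse joined by a line, filled where the edgeR adjusted p is under 0.05. Genes from Ccl3 to Pdcd1 lie left of 0 and those from Ccl5 to St6gal1 right of 0 in both mice, with Ccl1 and Klrg1 the widest apart between the mice. Of the genes with open points, Samd3, Slamf7 and Gzmk lie on either side of 0 and Eomes a little left of it. Tcf7, also open, lies right of 0 at 0.59 and 0.56.

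The receptors of Crtam cells without Xcl1 came from many clones. A clonotype was the same TRB V gene, J gene and CDR3 nucleotide sequence in 1 mouse, CDR3 being the stretch of the β chain that contacts the peptide. The cells formed 46 and 43 clonotypes, 20 and 19 cells were the single kept cell of theirs, and 9 was the most in 1 clonotype in each mouse. Clonotypes of 2 or more kept cells held 67.7% (54.7 to 79.1) and 66.7% (52.9 to 78.6) of them and 58.8% (57.4 to 60.2) and 58.5% (57.1 to 60.0) of comparison cells, and these intervals overlap. For Crtam cells with Xcl1 the shares were 85.7% (74.6 to 93.3) and 81.6% (68.0 to 91.2). Of the clonotypes, 25 and 24 also held comparison cells, and 9 and 7, with 24 and 16 of the Crtam cells without Xcl1, also held Crtam cells with Xcl1. No TRB sequence was shared between the Crtam cells without Xcl1 of the 2 mice.

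The clonotypes with the most Crtam cells without Xcl1 are shown by their TRB CDR3, 5′ to 3′ and read from the deposited receptor tables, so that the clones that weigh most in the sums can be compared. Capitals mark the base in which the 2 leading clonotypes of mouse 1 differ.
Mouse 1, clonotype 1, TRBV31 with TRBJ1-4: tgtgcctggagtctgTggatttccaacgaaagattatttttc
Mouse 1, clonotype 2, TRBV31 with TRBJ1-4: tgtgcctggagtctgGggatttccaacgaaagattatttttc
Mouse 1, clonotype 3, TRBV14 with TRBJ2-4: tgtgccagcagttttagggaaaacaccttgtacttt
Mouse 2, clonotype 1, TRBV13-1 with TRBJ2-7: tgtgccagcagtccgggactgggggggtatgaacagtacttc
Mouse 2, clonotype 2, TRBV12-2+TRBV13-2 with TRBJ2-1: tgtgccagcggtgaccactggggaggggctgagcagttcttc
Mouse 2, clonotype 3, TRBV12-2+TRBV13-2 with TRBJ2-5: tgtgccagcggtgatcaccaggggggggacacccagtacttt

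Clonotypes 1 and 2 of mouse 1 had 222 and 216 kept cells, and 9 and 6 of these were Crtam cells without Xcl1, 4.05% (1.87 to 7.56) and 2.78% (1.03 to 5.95). Counted from 1 at the 5′ end, their CDR3s of 42 bases differ by the substitution T16G. Both used the α chain gene TRAV21-DV12, with TRAJ56 in 216 cells of the first and TRAJ48 in 213 cells of the second, and with different α CDR3s.
Mouse 1, clonotype 1, TRA CDR3: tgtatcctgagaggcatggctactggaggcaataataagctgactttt
Mouse 1, clonotype 2, TRA CDR3: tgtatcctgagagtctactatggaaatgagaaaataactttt
The third clonotype of mouse 1 had 2 Crtam cells without Xcl1 among 88, and 2 more clonotypes of that mouse also had 2. Clonotype 1 of mouse 2 had 9 among 158 kept cells, 5.70% (2.64 to 10.5). The next ones were small clones with large shares: 3 of 8 cells (37.5%, 8.52 to 75.5) and 3 of 5 cells (60.0%, 14.7 to 94.7). Their V gene is named TRBV12-2+TRBV13-2 in the deposited table, which lists both genes. These intervals cover counting error only and count cells of 1 clone as separate draws.

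Without the leading clonotype of each mouse 146 genes passed instead of 407, and 145 of the 146 were among the 407. Leaving out the 3 leading clonotypes of each mouse gave 148. The cause of the lower counts was not tested. Trdc went from 0.76 to -2.35 on the log2 scale without the leading clonotype, passing in neither case. Eomes, Gzmk, Slamf7, Ifng, Gzmb, Cd40lg, Sostdc1 and Cxcr6 passed with and without it.

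Vβ3, the receptor segment of the series' title, is encoded by TRBV26. Of Crtam cells without Xcl1 14.5% (6.86 to 25.8) and 24.6% (14.1 to 37.8) used it, 9 and 14 cells, against 39.5% (38.1 to 40.9) and 34.3% (32.9 to 35.7) of comparison cells. The intervals are apart in mouse 1 and overlap in mouse 2, and the difference averaged -17.3 ± 10.8 percentage points (SD, n = 2 mice). By clonotypes, each taken 1 time, the shares came to 19.6% (9.36 to 33.9) and 32.6% (19.1 to 48.5) against 51.3% (49.4 to 53.3) and 48.8% (46.8 to 50.7). Crtam cells with Xcl1 had 9.52% and 12.2%. TRBV31 went the other way in mouse 1, with 27.4% (16.9 to 40.2) against 9.02% (8.21 to 9.88), where 15 of 17 such cells belong to clonotypes 1 and 2, and in mouse 2 it had 7.02% (1.95 to 17.0) against 3.14%. TRBV13-1 in mouse 2, with 15.8% (7.48 to 27.9) against 4.24%, was 1 clonotype. These shares were not tested between classes, with only 2 mice.

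**Figure D4:**
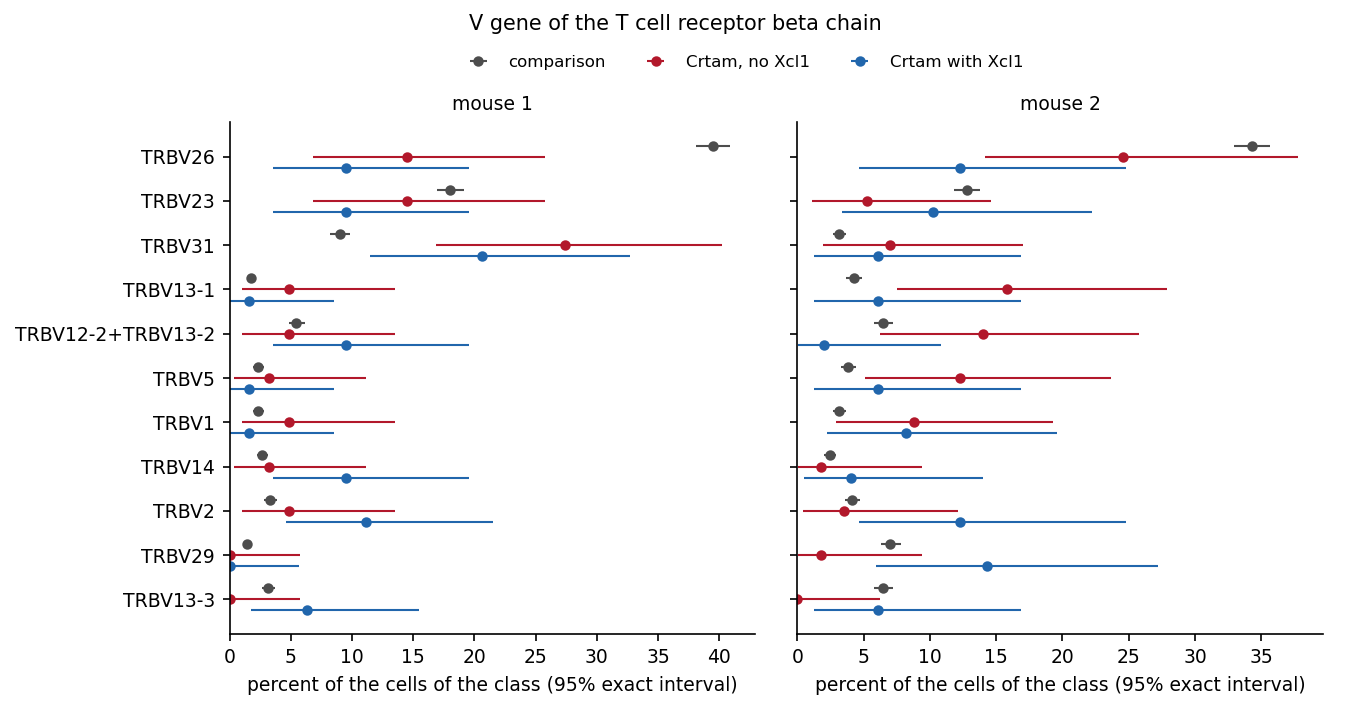
Share of cells with each of 11 V genes of the receptor β chain (horizontal axis, percent of the cells of the class, bars as 95% exact intervals for counting error) in comparison cells (grey), Crtam cells without Xcl1 (red) and Crtam cells with Xcl1 (blue), 1 panel per mouse. TRBV26 lies lower in the red than in the grey class in both mice, at 14.5% and 24.6% against 39.5% and 34.3%, and TRBV31 in mouse 1 and TRBV13-1 in mouse 2 lie higher.

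Within the Crtam cells without Xcl1, those with TRBV26 also carried Eomes and Samd3. Eomes was detected in 7 of 9 and 10 of 14 cells with TRBV26 and in 37 of 53 and 32 of 43 of the others, and Samd3 in 6 of 9 and 5 of 14 against 19 of 53 and 16 of 43. The interaction of class and TRBV26, tested by edgeR on 8 sums, passed for 1 of 10855 genes (0.00921%), and 583 had an unadjusted p under 0.05. The term was 0.76 ± 0.28 for Eomes and 0.53 ± 0.18 for Gzmk, with adjusted p = 0.919 for Eomes and Gzmk. With 1 cell per clonotype the terms of Eomes and Gzmk were below 0. The TRBV26 sums of Crtam cells without Xcl1 hold only 9 and 14 cells, and how large a difference this fit could detect was not tested.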

How the data were processed

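Cell Ranger 7.0.1 and the builds mm10 and GRCm38 are named in the submitters' processing notes for these 10x 5′ libraries. The deposited matrices hold UMI counts per gene and barcode without normalization, and the deposited receptor tables give contigs with V and J genes and CDR3. Cells were filtered as stated in the text, and cells with 2 or more TRB chains were left out in place of a doublet caller. Sums of UMI counts for each class in each mouse (4 sums) went into edgeR 4.0.16 (quasi-likelihood F test after filterByExpr and TMM). The mouse was a block, since both classes come from 1 animal, and p-values were Benjamini-Hochberg adjusted over all tested genes. Receptor gene segments, Crtam, Xcl1 and Foxp3 were left out of the tests. With 2 hosts, the p-values rest mostly on a spread pooled across genes and cover no other source of variation than these samples. DESeq2 1.42.0, other thresholds, 1 cell per clonotype drawn with seed 1, and comparison cells matched in depth (5 per cell) were alternatives. The tests were checked on sums simulated with the same dispersion for all genes and no grouping of UMIs in cells or clones. That check does not cover genes that rest on few cells or clones. For the comparison cells, 22 of 50 genes raised by 1 on the log2 scale and 18 of 50 lowered by 1 were called. False calls numbered 3 with 12136 genes tested there, and 8 with 6269 genes tested for Crtam cells with Xcl1. CPM are per 1000000 UMIs of the sum. Per-mouse differences use CPM + 5. Gene positions come from GENCODE M21. Intervals are exact Clopper-Pearson 95% intervals for counting error.

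The rule named the 12 largest increases and 8 largest decreases with at least 20 CPM in 1 class, the 3 genes with the smallest p of each of the lists that are not markers of other cells, genes fixed by name, the 6 largest changes each way against Crtam cells with Xcl1 and the 3 clonotypes with the most cells in each mouse. Other genes named are members of a list that passed, or were chosen after their values were seen. Some genes that passed are counted but not reported by name here. The cells, lists and comparisons were chosen with earlier results of these data known.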

Additional observations from a re-analysis of the deposited data

Results flagged for a closer look

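For Gpr183, which encodes a receptor for oxysterols that guides lymphocytes within lymphoid tissue, the difference between Crtam cells without Xcl1 and comparison cells was of another size in cells with TRBV26 than in other cells, by the test of the interaction itself. The term was -2.41 ± 0.39 on the log2 scale (edgeR adjusted p = 0.0494). Among other V genes Gpr183 had 170.4 and 225 CPM in Crtam cells without Xcl1 and 92.6 and 109.6 CPM in comparison cells, so it was higher in 2 of 2 mice. Among TRBV26 cells it had 79.8 and 74.7 against 149 and 219 CPM, lower in both. The TRBV26 values rest on 5 and 7 UMIs in 9 and 14 cells, and without the mouse block the term was -2.38 (adjusted p = 0.877).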

How the results depend on the processing

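Against comparison cells 407 genes passed; 185 passed with 1 cell per clonotype, 186 with DESeq2, 146 and 148 without the leading clonotype and the 3 leading clonotypes of each mouse, 622 with at least 1 Crtam UMI and 618 with TRBV26 as an added term. Against Crtam cells with Xcl1 110 passed, 22 with 1 cell per clonotype, 11 with DESeq2 and 44 with no replicate block. For the interaction 1 gene passed, 4 with 1 cell per clonotype and 0 with no replicate block (589 at an unadjusted p under 0.05). The cause was not tested. Without the mouse block, the pairing of classes within an animal, 286 genes passed against comparison cells; of the 101 called genes listed by name, including those chosen after their values were seen, 27 no longer passed, and 7 of 27 against Crtam cells with Xcl1. Other filters, depth matching, leaving out TRBV26 cells or shared barcodes (the last chosen after seeing the data) gave 291 to 572 genes; with no filter on low counts 41.6% of the calls were higher and with at least 3 Crtam UMIs 39.4%, against 47.2%, and 55.9% with DESeq2. A fit on 1 mouse has no residual degrees of freedom, so no count is given without a mouse. Of those 101 genes 35 passed in every alternative with a test, and of the 27 against Crtam cells with Xcl1 7 did; these totals support nothing further. The difference in cells of expanded clonotypes was 8.53 percentage points, 13.4 with at least 3 and 12.4 with at least 1 Crtam UMI, and 8.12 to 8.94 with either mouse alone; that of TRBV26 ran from -24.96 to -9.72. Differences that turned sign were, with 1 cell per clonotype, Nkg7 (0.62), Tigit (0.068), Tcf7 (-0.24), Trdc (-0.044), Samd3 and Slamf7 against Crtam cells with Xcl1 (0.031 and -0.070) and the interaction terms of Eomes (-0.32) and Gzmk (-0.30). With at least 1 Crtam UMI these were Spp1 (0.037), Itgb1 (0.15), Cd27 (-0.046), Egr2 (-0.058) and Scrib (0.0097); with at least 3, Prf1 (-0.23), Tcf7 (-0.022), Cd27 (-0.042) and Tbx21 (0.076); without TRBV26 cells, Il2 (-0.26), Prf1 (-0.14) and Id3 (0.096). Mki67 was 0.031 and Trdc -2.35 without the leading clonotype, Mki67 0.12 and Cd27 -0.028 without cells above the 98th percentile of UMIs, and Slamf7 -0.031 against Crtam cells with Xcl1 with no replicate block. Of these only Nkg7, Spp1 and Itgb1 had passed. Depth limits genes with few UMIs: 2022 of the tested genes had under 3 UMIs over all Crtam cells without Xcl1.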
